A study of Mus musculus with 6 samples.

Results

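Endothelial, smooth muscle and pericyte markers are genes used to mark the cells of blood and lymph vessels in whole tissue. Here 46 such genes were followed, chosen by their symbols in the deposited table, which holds 24532 genes. They fall into 32 endothelial members, 3 lymphatic members (Flt4, Lyve1 and Prox1) and 11 mural members, that is, genes of the smooth muscle cells and pericytes that wrap a vessel. All 46 were found and all 46 passed the filter on low counts, which left 14109 genes for testing.

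The 6 samples were poly(A)-selected RNA libraries of gastrocnemius, the large calf muscle, from 12-week-old C57BL/6 mice. In 3 knockout mice both a Ckmm-Cre transgene and floxed USP21 alleles were present, and 3 control mice, entered as Litter, carried the USP21 flox/flox alleles with no Cre named. Usp21 encodes a ubiquitin-specific protease, and the muscle creatine kinase promoter that drives this Cre is active in differentiated striated muscle fibres, so vessel cells are not its known site of action. Nothing in the labels says which mice shared a litter or that libraries were repeated. The p-values set each group difference only against the scatter among these 6 samples, which may be technical in part. Total counts were between 48658436 and 67332846 per library. Usp21 itself stood at 9.08, 7.19 and 7.47 CPM (counts scaled to a common library size) in knockouts and at 19.3, 19.3 and 19.2 CPM in controls, the direction its label gives. Skeletal muscle actin Acta1 averaged 39196 CPM in knockouts and 38727 CPM in controls.

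As background, a muscle capillary is a tube of endothelial cells held together by junction proteins such as VE-cadherin and claudin. Vascular endothelial growth factor from muscle fibres acts on endothelial receptors, angiopoietins act on the receptor encoded by Tek, and Notch signalling between neighbouring cells sets arterial identity. Pericytes lie on capillaries and are recruited by platelet-derived growth factor, arterioles carry contractile smooth muscle, and lymphatic vessels drain the tissue under the control of the transcription factor Prox1. In bulk tissue, fewer cells of a type and less RNA per cell cannot be told apart.

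The promoter windows of 4 members are shown because these genes carry the contrasts described below: Kdr and Flt1 encode receptors for the same growth factor and had log2 fold changes of opposite sign, Efnb2 had the smallest p among members lower in knockouts, and Notch4 the smallest among endothelial members higher in them. Each is the RefSeq window of GRCm38.p6, the assembly that mm10 names, from 250 bases before to 50 bases after the transcript start that its table uses, written in the direction of transcription. That start is at base 75978455 for Kdr and 147726011 for Flt1, which lie 617 and 427 bases inside the outer start of the gene's RefSeq span, at base 8661242 for Efnb2, the outer start itself, and at 34564295 for Notch4, 9 bases inside. Capitals mark GGAAGT or its reverse complement, the letters many ETS factors bind, and GTGGGAA or its reverse complement, the letters the Notch partner RBPJ binds. Windows are at chr5:75978406-75978705 (minus strand) for Kdr, chr5:147725962-147726261 (minus) for Flt1, chr8:8661193-8661492 (minus) for Efnb2 and chr17:34564045-34564344 (plus) for Notch4.
Kdr: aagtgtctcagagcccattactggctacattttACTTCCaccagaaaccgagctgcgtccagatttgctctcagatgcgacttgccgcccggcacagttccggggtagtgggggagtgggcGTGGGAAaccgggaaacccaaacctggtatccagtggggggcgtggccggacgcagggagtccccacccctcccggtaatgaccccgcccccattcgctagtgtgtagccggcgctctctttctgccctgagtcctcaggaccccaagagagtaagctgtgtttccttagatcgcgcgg
Flt1: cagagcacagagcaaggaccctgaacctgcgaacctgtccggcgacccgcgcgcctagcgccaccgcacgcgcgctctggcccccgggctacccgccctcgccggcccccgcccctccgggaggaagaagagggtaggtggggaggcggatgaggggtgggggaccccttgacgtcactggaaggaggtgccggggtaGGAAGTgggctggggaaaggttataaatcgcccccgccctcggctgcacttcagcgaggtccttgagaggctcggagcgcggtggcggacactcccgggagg
Efnb2: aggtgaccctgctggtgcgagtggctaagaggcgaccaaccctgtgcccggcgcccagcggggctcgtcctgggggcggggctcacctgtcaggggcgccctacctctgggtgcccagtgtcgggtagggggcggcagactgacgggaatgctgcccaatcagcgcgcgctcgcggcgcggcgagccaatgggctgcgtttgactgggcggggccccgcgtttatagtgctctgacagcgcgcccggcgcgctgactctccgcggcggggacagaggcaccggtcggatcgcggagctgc
Notch4: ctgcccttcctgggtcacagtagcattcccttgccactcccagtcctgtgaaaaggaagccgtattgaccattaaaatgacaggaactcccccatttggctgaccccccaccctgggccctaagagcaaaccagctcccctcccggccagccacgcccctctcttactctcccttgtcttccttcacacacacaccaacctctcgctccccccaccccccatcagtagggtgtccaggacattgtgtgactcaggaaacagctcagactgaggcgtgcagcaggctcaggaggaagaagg

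The Kdr window holds the ETS letters from 217 bases before this transcript start, as the reverse complement, and the RBPJ letters from 129 bases before it. Flt1 holds the ETS letters from 52 bases before the transcript start of its window. These letters of Kdr and Flt1 thus lie inside the genes' full RefSeq spans. The windows of Efnb2 and Notch4 hold neither. RefSeq windows were at hand for 28 members (33 windows). The ETS letters were in 7 of these 33 windows (21.2%, against 23.8% of all 32851 windows), the RBPJ letters in 2 (6.06%, against 6.38%), and AACAAT, letters bound by SOX factors, in 4 (12.1%, against 10.7%). Both strands were searched, and the 3 motifs were counted separately. These shares lie close to those of all windows.

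No member passed the test between knockout and control muscle. At an edgeR adjusted p under 0.05, 0 of 46 members were called, against 8 of the 14109 genes tested (0.0567%), 5 of them higher in knockouts (0.0354%) and 3 lower (0.0213%). DESeq2's Wald test called 1 member, Lyve1, against 2.10% of the 13829 genes to which it gave an adjusted p, and limma-voom called 0, against 0.0354% of genes. At an unadjusted edgeR p under 0.05, 5 members were higher in knockouts, against 6.56% of all genes, and 1 was lower, against 5.07%. Together these 6 are 13.0% of the members, close to the 11.6% of all genes. The groups' log2 CPM values did not overlap for 9 members, 8 of them higher in knockouts (8.38% of all genes) and 1 lower (8.87%). That is 19.6% of the members, beside 17.3% of all genes. On the deposited FPKM scale only Notch4 and Lyve1 did not overlap, both higher in knockouts, against 4.42% of all genes higher and 15.7% lower. Of members lower in knockouts, 3 did not overlap with upper-quartile scaling (9.72% of all genes) and 0 with a filter of 1 CPM (9.34%). The log2 CPM counts thus depend on scaling and filter.

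**Figure D1:**
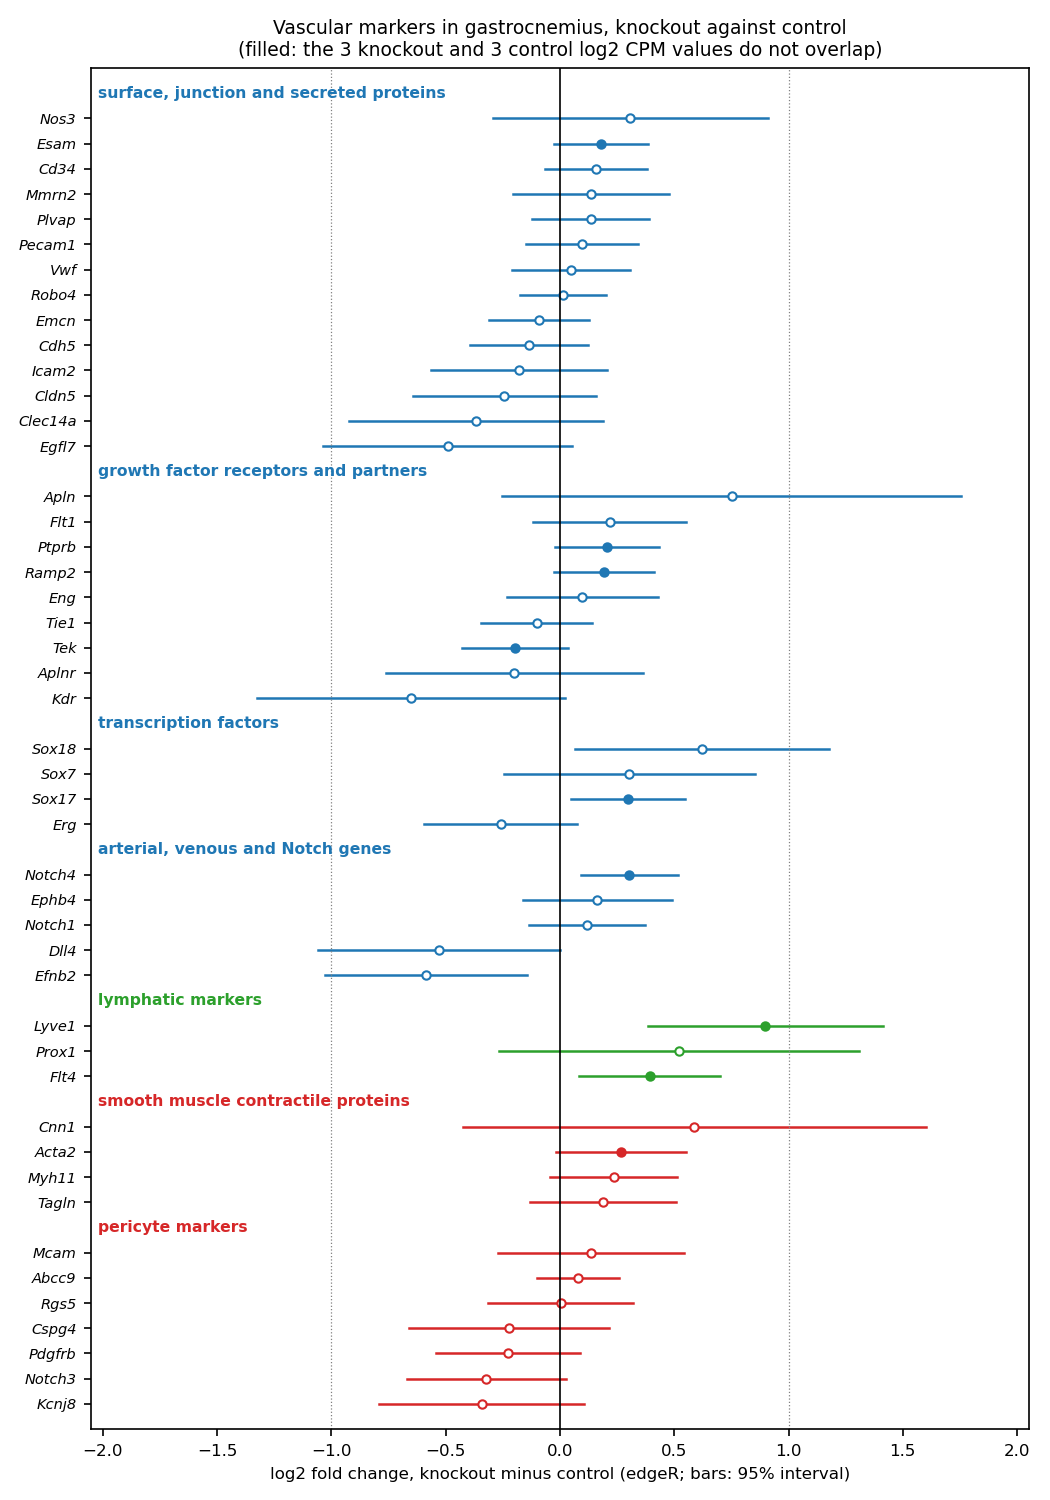
Log2 fold change of each of the 46 genes, knockout minus control, with its 95% interval from edgeR (x axis), by role (rows; blue endothelial, green lymphatic, red mural). Filled points mark the 9 genes whose 3 knockout and 3 control values do not overlap, and dotted lines mark a doubling and a halving.

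The precision was high enough to bound most members, as it was for most genes tested. For 37 of the 46 genes the 95% interval of the log2 fold change excluded both a doubling and a halving. Among all 14109 genes tested, it did so for 11037. A change of 1.5-fold in either direction was excluded for 27 of the 46 members and for 8014 of all genes tested. The median log2 fold change was 0.096 over the 32 endothelial members (19 positive, 13 negative), 0.52 over the 3 lymphatic members (3 positive) and 0.078 over the 11 mural members (7 positive, 4 negative). Over all genes tested it was -0.0037, with 49.3% positive. On log2(FPKM + 1) the medians were 0.029 (17 positive) for endothelial, 0.20 (3 positive) for lymphatic and 0.0053 (6 positive) for mural members. All genes tested were lower on that scale too, with a median of -0.047 and 5113 of 14109 positive. By counts, the endothelial median was 0.040 without knockout 1, 0.056 without knockout 2 and 0.040 without control 3. The mural median was 0.031 without knockout 1, and the lymphatic median 0.32 without control 3. These shifts were smaller than the lists' own spread between libraries. The pooled SD of the median log2 CPM, relative to each gene's mean, was 0.107 for endothelial, 0.302 for lymphatic and 0.0664 for mural members. Within the mural members the 4 smooth muscle genes were all positive (median 0.25), whereas 4 of the 7 pericyte genes were negative (median -0.22).

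Levels between genes can be compared per length, as FPKM (fragments scaled to transcript length and library size). A pair of pericyte genes led the 46. Rgs5, a regulator of G protein signalling that marks pericytes, was the highest of the 46, with 83.4 ± 10.6 FPKM in knockouts and 87.6 ± 17.4 FPKM in controls (SD, n = 3 each). Abcc9, the regulatory subunit of an ATP-sensitive potassium channel, came next at 46.8 ± 1.64 and 46.6 ± 2.32 FPKM in knockouts and controls. The muscle fibre's own channel also uses the Abcc9 product, so this gene is not a marker of pericytes alone.

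The highest endothelial members were Cd34, a surface sialomucin that progenitor cells of muscle also carry, at 32.6 ± 3.57 FPKM in knockouts and 30.8 ± 3.45 FPKM in controls, and Ramp2, at 32.4 ± 3.36 and 29.7 ± 0.813 FPKM. By FPKM the groups overlapped for Cd34 and Ramp2. They also overlapped for the next in order, Pecam1 (25.9 ± 2.26 and 25.5 ± 3.28 FPKM in knockouts and controls) and Egfl7 (20.4 ± 6.66 and 29.9 ± 7.0 FPKM). The Egfl7 means lay further apart than either SD, and the Ramp2 means further apart than the SD of controls. The lowest members were Cnn1, Apln and Prox1, with means over the 6 libraries of 0.626, 0.427 and 0.254 FPKM. Even these had at least 39 counts in each library. The median member had 6.64 FPKM, and the lymphatic members had 0.254 to 7.63 FPKM.

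**Figure D2:**
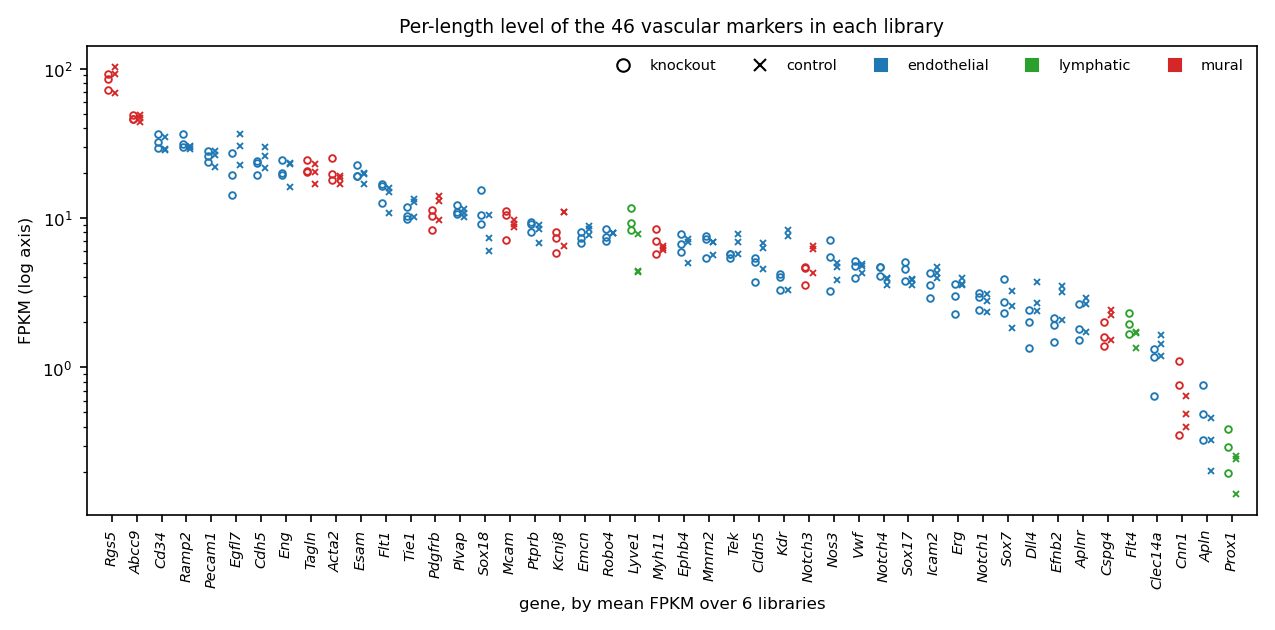
FPKM of each of the 46 genes in every library (y axis, logarithmic), ordered by the mean over 6 libraries (x axis); open circles are knockouts, crosses controls, and colour gives the class. Rgs5 and Abcc9 lead, and Prox1 is lowest at 0.254 FPKM.

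Among 14 surface, junction and secreted proteins of endothelium, 8 log2 fold changes were positive and 6 negative, with a median of 0.031. On log2(FPKM + 1) the median was -0.034 (6 positive, 8 negative), beside -0.047 over all genes tested (5113 positive, 8996 negative). None of the 14 had an unadjusted p under 0.05. Pecam1, the adhesion molecule that lines endothelial contacts, was measured at 94.0, 92.0 and 78.9 CPM in knockouts and at 85.7, 88.0 and 74.3 CPM in controls. Cdh5, which encodes VE-cadherin, was at 98.4, 84.2 and 94.6 CPM in knockouts and at 102, 113 and 89.6 CPM in controls. For both genes the groups overlapped, and the intervals of their log2 fold changes (-0.15 to 0.34 for Pecam1 and -0.39 to 0.12 for Cdh5) exclude a change of 1.5-fold.

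Robo4, a guidance receptor that stabilises vessels, had the smallest log2 fold change of the 14, with 33.0, 29.5 and 29.4 CPM in knockouts and 30.3, 29.3 and 31.4 CPM in controls (log2 fold change 0.015, SE 0.081). Esam, a junction molecule, was the only gene of these 14 whose groups did not overlap. It was at 42.5, 38.7 and 36.1 CPM in knockouts and at 36.0, 35.2 and 32.4 CPM in controls (0.18, SE 0.088, edgeR adjusted p = 0.488). Cd34 was at 82.8, 80.6 and 93.7 CPM in knockouts and at 72.2, 83.7 and 74.7 CPM in controls (0.16, SE 0.096, adjusted p = 0.576).

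Egfl7, a secreted matrix protein whose gene contains the endothelial microRNA gene Mir126a, had the smallest p of the set. It was at 27.3, 21.2 and 38.4 CPM in knockouts and at 49.8, 40.0 and 32.4 CPM in controls (-0.49, SE 0.23, edgeR adjusted p = 0.472). Knockout 3 and control 3 cross, so the groups overlap. Mature microRNA is not captured by poly(A) selection, and nothing here measures it. Nos3, the endothelial nitric oxide synthase, was uneven among knockouts, at 30.1, 24.6 and 13.7 CPM against 19.1, 19.7 and 16.5 CPM in controls. A gene on the opposite strand, Atg9b, overlaps Nos3, and whether counting used the strand is not stated, so its reads may include those of Atg9b. The same holds for Cd34, Eng, Plvap and Tagln, which each overlap an opposite-strand gene that was tested.

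The rest of this set (Icam2, Emcn, Cldn5, Clec14a, Mmrn2, Vwf and Plvap) had log2 fold changes between -0.37 (Clec14a) and 0.14 (Mmrn2 and Plvap). Vwf, the clotting factor carrier stored in endothelium, averaged 42.3 ± 4.09 CPM in knockouts and 40.9 ± 4.55 CPM in controls (SD, n = 3 each). Emcn, a mucin of capillaries and veins, averaged 11.3 ± 0.676 and 12.0 ± 0.561 CPM. Cldn5, the tight junction claudin, averaged 6.95 ± 1.08 and 8.23 ± 1.34 CPM, with overlapping groups (edgeR adjusted p = 0.630).

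Among 9 receptors and their partners, 5 log2 fold changes were positive and 4 negative, and none had an unadjusted p under 0.05. The VEGF receptors pointed in opposite directions. Kdr, the main signalling receptor, was at 22.4, 19.4 and 23.4 CPM in knockouts and at 40.8, 43.1 and 18.6 CPM in controls. Controls 1 and 2 were above every knockout and control 3 was below all of them (log2 fold change -0.65, SE 0.29, edgeR adjusted p = 0.438). Flt1, which binds the same ligand and acts largely as a decoy, was at 105, 85.9 and 108 CPM in knockouts and at 92.3, 95.3 and 70.0 CPM in controls (0.22, SE 0.14, adjusted p = 0.611). Control 3 was the lowest library for both receptors.

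Of the angiopoietin system, the receptor Tek was nearly constant in knockouts, at 27.6, 27.5 and 27.7 CPM, against 32.0, 35.1 and 27.7 CPM in controls. Its groups did not overlap, though the highest knockout and the lowest control are equal at this rounding (-0.20, SE 0.099, adjusted p = 0.500). Its partner Tie1 averaged 43.2 ± 3.40 CPM in knockouts and 46.3 ± 5.03 CPM in controls (SD, n = 3 each). Ptprb, the phosphatase that switches the Tek receptor off, was at 111, 105 and 114 CPM in knockouts and at 99.5, 102 and 84.1 CPM in controls, without overlap (0.21, SE 0.097, adjusted p = 0.469).

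Ramp2, the partner that makes the adrenomedullin receptor, was likewise above every control, with 27.6, 28.3 and 32.2 CPM in knockouts and 25.8, 23.9 and 27.4 CPM in controls (0.19, SE 0.093, adjusted p = 0.482). Eng, a co-receptor for transforming growth factor beta, averaged 75.9 ± 8.96 and 71.0 ± 11.4 CPM in knockouts and controls (SD, n = 3 each). Apelin, encoded by Apln and made by sprouting endothelium, was low and uneven, at 1.56, 2.62 and 1.04 CPM in knockouts and 1.42, 0.617 and 1.07 CPM in controls. Its interval reached from -0.25 to 1.75, so a doubling is not excluded. The apelin receptor Aplnr averaged 7.40 ± 2.03 CPM in knockouts and 8.51 ± 1.96 CPM in controls.

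**Figure D3:**
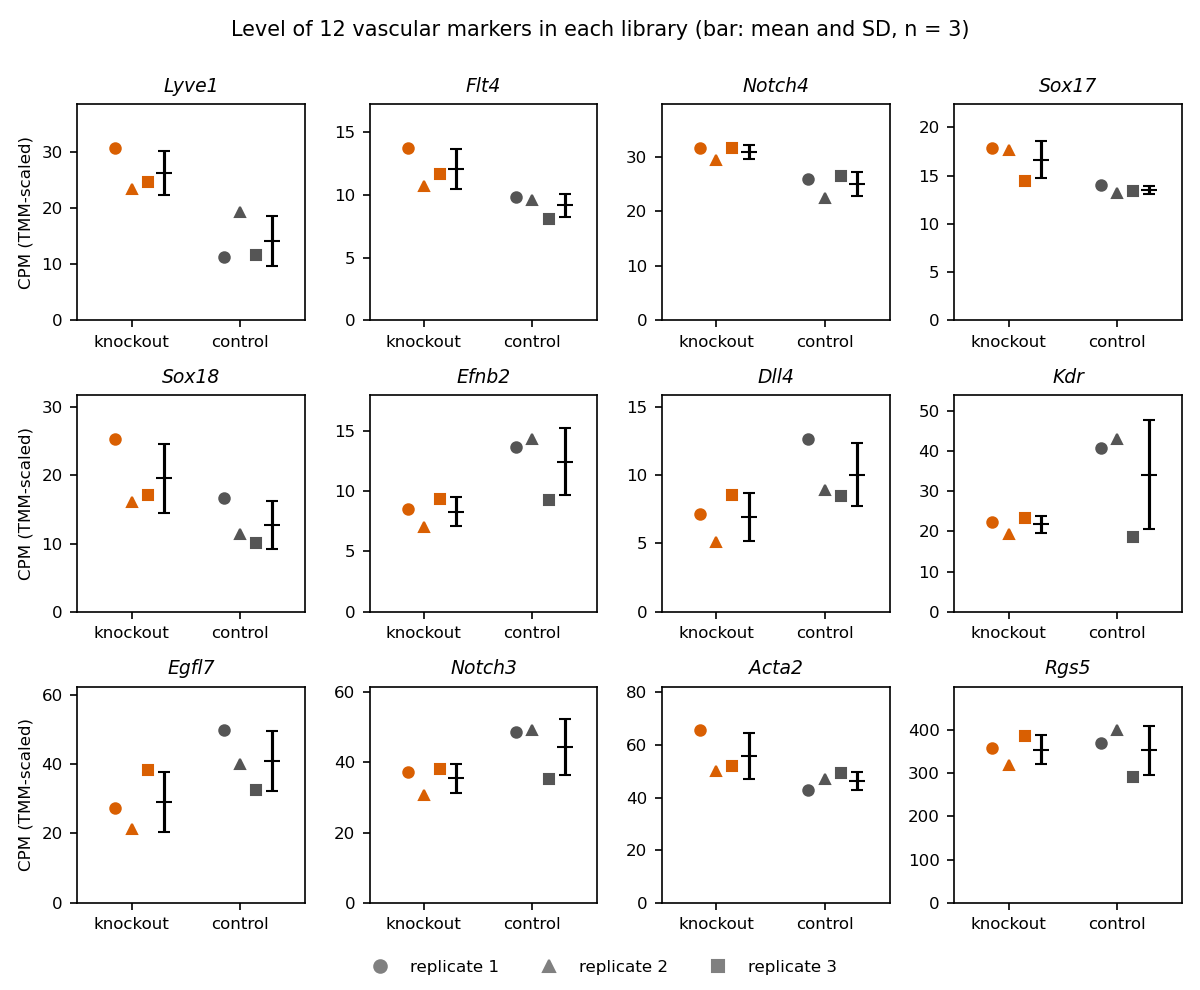
TMM-scaled CPM (y axis, from 0) of 12 members in each library, knockout left and control right; symbols mark the replicate, and the bar gives the mean and SD (n = 3). Lyve1, Flt4, Notch4, Sox17 and Acta2 do not overlap. In Flt4, Sox18, Efnb2, Dll4, Kdr, Egfl7, Notch3 and Rgs5 control 3 lies below the other controls.

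The SoxF transcription factors, which act together in endothelial differentiation, were all positive. Sox17, linked to arteries, was at 17.9, 17.6 and 14.4 CPM in knockouts and at 14.0, 13.2 and 13.4 CPM in controls (log2 fold change 0.30, SE 0.11, edgeR adjusted p = 0.376). Sox18, linked to early lymphatic specification, was at 25.4, 16.1 and 17.2 CPM in knockouts and at 16.8, 11.4 and 10.1 CPM in controls (0.62, SE 0.24, edgeR adjusted p = 0.391). Sox17 did not overlap, whereas in Sox18 control 1 lay above knockout 2. Sox7 averaged 10.1 ± 2.51 CPM in knockouts and 8.19 ± 2.14 CPM in controls (SD, n = 3 each). Erg, an ETS factor that maintains endothelial identity, was at 9.71, 7.95 and 11.6 CPM in knockouts and 11.2, 11.9 and 11.8 CPM in controls (-0.26, SE 0.14, adjusted p = 0.541).

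The arterial, venous and Notch genes did not point one way. Efnb2, the ephrin ligand of arterial endothelium, was at 8.48, 7.0 and 9.36 CPM in knockouts and at 13.7, 14.4 and 9.27 CPM in controls (-0.59, SE 0.19, edgeR adjusted p = 0.363). It overlapped because control 3 was just under knockout 3. Dll4, the arterial Notch ligand, was at 7.12, 5.09 and 8.56 CPM in knockouts and at 12.6, 8.91 and 8.49 CPM in controls (-0.53, SE 0.23, adjusted p = 0.428).

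Notch4, a Notch receptor largely limited to endothelium, was at 31.7, 29.3 and 31.5 CPM in knockouts and at 26.0, 22.5 and 26.5 CPM in controls. Every knockout was above every control (0.30, SE 0.090, edgeR adjusted p = 0.346). Notch1 averaged 27.9 ± 2.85 CPM in knockouts and 25.7 ± 2.39 CPM in controls, and the venous ephrin receptor Ephb4 30.6 ± 3.49 and 27.3 ± 4.37 CPM (SD, n = 3 each).

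Lyve1 had the smallest p of the 46 genes, and all 3 lymphatic members were positive. It encodes a hyaluronan receptor of lymphatic endothelium that some resident macrophages also carry. Lyve1 was at 30.9, 23.4 and 24.8 CPM in knockouts and at 11.4, 19.3 and 11.7 CPM in controls. Every knockout was above every control, by a log2 fold change of 0.90 (SE 0.22, interval 0.39 to 1.41). The adjusted p was 0.291 by edgeR, so it did not pass, and 0.00662 by DESeq2, which called it. Leukocyte markers are given beside it: 7 genes, 6 with positive log2 fold changes, sum to 108, 67.4 and 97.7 CPM in knockouts and 62.6, 103 and 63.4 CPM in controls, Cd3e being too low to test. Control 2 was the highest control both in this sum and in Lyve1, and the part of leukocytes in the Lyve1 difference was not tested.

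Flt4, the receptor for VEGF-C on lymphatic endothelium, was at 13.8, 10.7 and 11.7 CPM in knockouts and at 9.79, 9.62 and 8.11 CPM in controls, again without overlap (0.39, SE 0.13, edgeR adjusted p = 0.363). Prox1, which is also transcribed in muscle fibres, was at 1.24, 0.892 and 1.64 CPM in knockouts and at 0.997, 1.02 and 0.620 CPM in controls (0.52, SE 0.34, adjusted p = 0.601). Its interval ran from -0.27 to 1.31, so a doubling is not excluded.

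Of 4 further lymphatic genes, Pdpn (podoplanin, which fibroblasts also make) was at 6.29, 5.57 and 5.53 CPM in knockouts and 3.75, 5.34 and 3.98 CPM in controls (0.41, SE 0.17, adjusted p = 0.409), and Mmrn1 was at 5.21, 3.87 and 7.52 CPM against 3.67, 3.09 and 4.22 CPM (0.60, SE 0.25, adjusted p = 0.427). Reln, which encodes the matrix protein reelin, had a log2 fold change of 0.18. Ccl21a, a chemokine gene, was the only one of the 4 with a negative value (-3.11, SE 1.78, adjusted p = 0.549). It had 0 counts in knockout 2 and control 3, 0.261 and 0.383 CPM in knockouts 1 and 3, and 5.62 and 0.154 CPM in controls 1 and 2, so the value follows control 1. It belongs to a group of near-identical genes, so its counts are uncertain.

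Among mural members, the contractile proteins of smooth muscle had positive log2 fold changes in 4 of 4 genes, in all fits, including every scaling and each left-out library, in which they were tested. None had an unadjusted p under 0.05. Acta2, smooth muscle actin, was at 65.7, 49.9 and 51.9 CPM in knockouts and at 42.8, 46.9 and 49.4 CPM in controls, without overlap (0.27, SE 0.12, adjusted p = 0.451). Its coding sequence is nearly that of skeletal actin Acta1, which is far more abundant here, so the division of reads is uncertain. Another actin gene, Actc1, averaged 434 CPM in knockouts and 156 CPM in controls, with overlapping groups (1.47, edgeR adjusted p = 0.383). It was named after its values were seen. The part of reads from other actin genes in the Acta2 values was not tested.

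Myh11, the smooth muscle myosin heavy chain, was at 47.5, 41.0 and 56.8 CPM in knockouts and at 40.9, 40.7 and 41.9 CPM in controls (0.23, SE 0.12, adjusted p = 0.501). Tagln, an actin-binding protein, was at 39.2, 34.8 and 33.5 CPM in knockouts and 26.3, 30.5 and 37.5 CPM in controls (0.19, SE 0.14, adjusted p = 0.637). Cnn1, calponin, was at 2.24, 1.65 and 0.712 CPM in knockouts and 0.798, 0.926 and 1.33 CPM in controls, with an interval from -0.43 to 1.6. For the last 3 genes the groups overlapped.

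No pericyte marker had an unadjusted p under 0.05, and the groups overlapped for all 7. Rgs5 was at 358, 319 and 386 CPM in knockouts and at 369, 400 and 290 CPM in controls, with means of 354 and 353 CPM (0.0042, SE 0.14). Its interval, -0.31 to 0.32, excludes a change of 1.5-fold. Its sign turned with scalings under which the median over all genes tested was also lower. Abcc9 was at 348, 373 and 371 CPM in knockouts and 358, 335 and 341 CPM in controls (0.078, SE 0.077).

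Kcnj8, the pore of the same channel, lies next to Abcc9 on chromosome 6 with 16247 bases between the genes, yet had another pattern. It was at 19.1, 16.1 and 20.9 CPM in knockouts and at 27.5, 26.6 and 17.0 CPM in controls (-0.34, SE 0.19, adjusted p = 0.542). Notch3, the Notch receptor of mural cells, had the smallest p of the set, at 37.3, 30.8 and 38.2 CPM in knockouts and 48.6, 49.2 and 35.2 CPM in controls (-0.32, SE 0.15, adjusted p = 0.457). Pdgfrb, the receptor that recruits pericytes and that fibroblasts share, averaged 55.7 ± 6.87 and 65.2 ± 9.38 CPM, and the proteoglycan Cspg4 14.0 ± 2.63 and 16.3 ± 3.21 CPM in knockouts and controls (SD, n = 3 each). In all 4 of these genes control 3 lay below the other controls. Mcam averaged 29.0 ± 6.79 CPM in knockouts and 26.3 ± 2.37 CPM in controls.

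**Figure D4:**
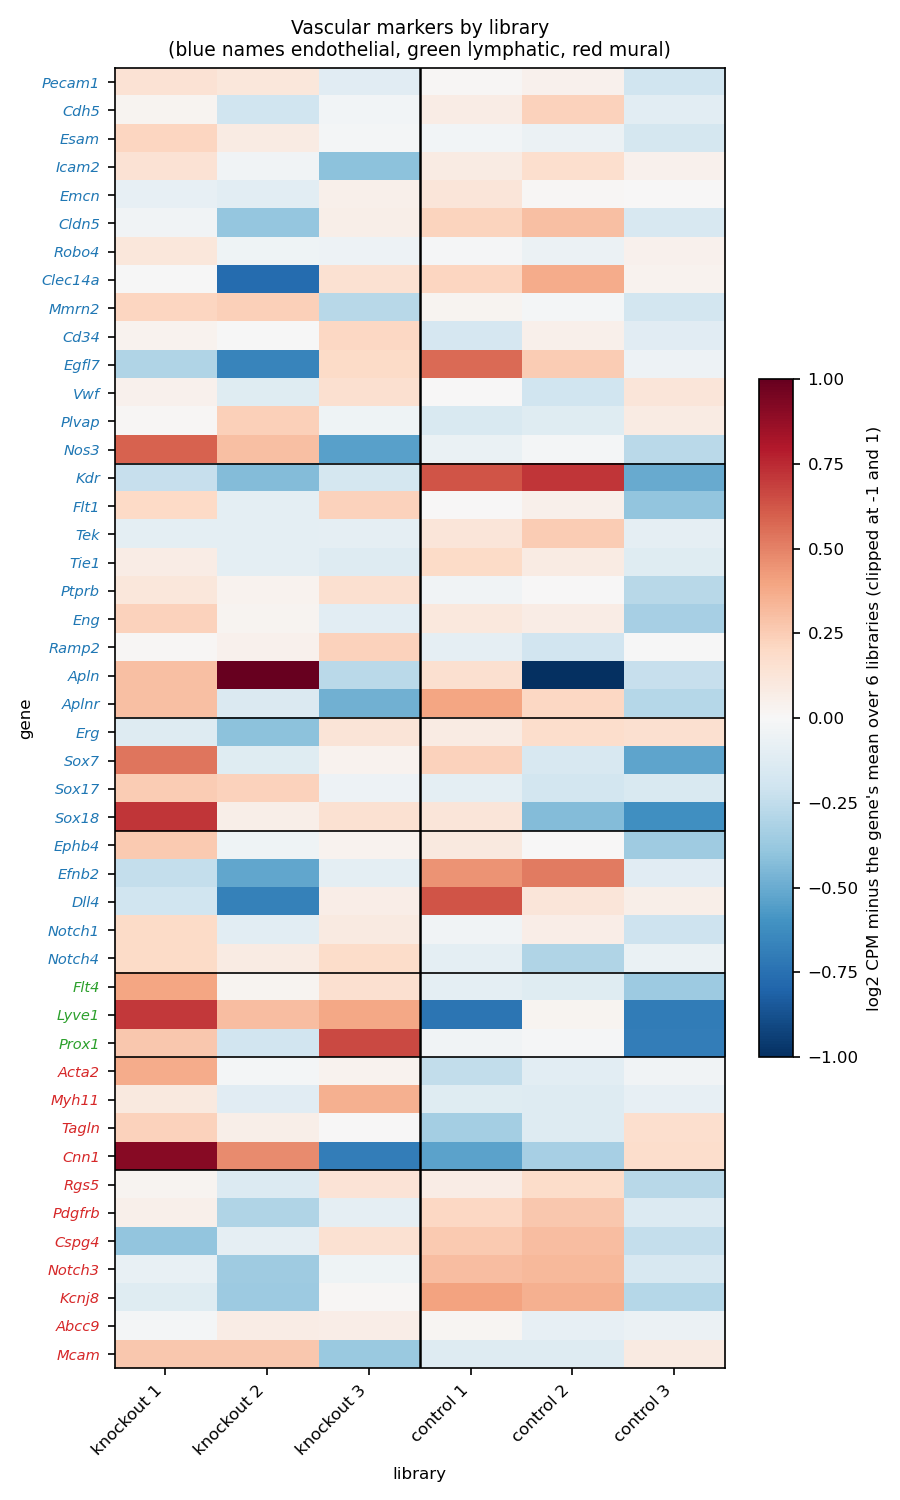
Log2 CPM of each of the 46 genes minus its mean over the 6 libraries (colour, clipped at -1 and 1), libraries in columns and genes in rows by role. Control 3 holds the highest value of none of the 46 genes, and knockout 1 of 16.

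The libraries differed in ways that groups do not explain. Control 3 had the highest value for 0 of the 46 members, against 22.3% of all genes, and the lowest for 13 (28.3%, against 21.7%). Knockout 1 had the highest value for 16 members (34.8%, against 15.8% of all genes). Summed over the 32 endothelial members, CPM was 1149, 1027 and 1084 in knockouts and 1109, 1106 and 938 in controls. Summed over the 11 mural members it was 1023, 961 and 1052 in knockouts and 1026, 1045 and 909 in controls, so control 3 was lowest in both sums.

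Control 3 also stood apart for slow-twitch fibre genes, whose summed level over 8 genes was 1079, 764 and 1739 CPM in knockouts and 1418, 1378 and 165 CPM in controls. Slow and oxidative fibres are known for dense capillaries, as background. The part of fibre composition in the vascular values was not tested. Without control 3, 8 members had an unadjusted edgeR p under 0.05 and were lower in knockouts (Dll4, Efnb2, Egfl7, Kcnj8, Kdr, Notch3, Pdgfrb and Tek), against 5.06% of all genes in that fit, and 4 were higher (Lyve1, Notch4, Ramp2 and Tagln), against 5.58%. None passed with adjustment, the lowest adjusted p being that of Kdr at 0.0952 (log2 fold change -0.95). Without knockout 3, 11 members were higher (8.95% of all genes) and 4 lower (7.24%), and again none passed with adjustment.

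Other cells of the muscle are given for comparison. Fibroblast markers had positive log2 fold changes in 8 of 8 genes and summed to 3016, 2860 and 2523 CPM in knockouts and 1909, 2526 and 1675 CPM in controls. Red blood cell genes summed to 191, 1010 and 274 CPM in knockouts and 241, 197 and 248 CPM in controls, so knockout 2 stood apart. Adipocyte sums were highest in knockout 2 and control 3 (221 and 162 CPM), mostly through Cfd (182 and 125 CPM). Lep of that list differed, at 1.79, 1.78 and 0.767 CPM in knockouts and 5.44, 1.51 and 7.87 CPM in controls. Its log2 fold change was -1.77 (edgeR adjusted p = 0.363). Schwann cell sums ran from 98.7 CPM in knockout 2 to 374 CPM in knockout 3. Fast-twitch fibre sums ranged from 125821 to 174301 CPM and satellite cell sums from 117 to 129 CPM. Most of the satellite cell sums came from Itga7, with means of 92.4 CPM in knockouts and 91.1 CPM in controls. Pax7 averaged only 1.70 and 2.10 CPM in knockouts and controls. None of these lists had a gene past the adjusted threshold, and their part in the vascular values was not tested.

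Ratios of partner genes within a library do not depend on library scaling. For 10 pairs of ligand and receptor, of receptors or of subunits, chosen after the values were seen and therefore given with no test, the groups did not overlap in 5. Because of that choice the count of 5 is no measure of how often partner ratios differ, and no share over other gene pairs was computed. Kdr over Flt1 was 0.212, 0.226 and 0.216 in knockouts and 0.442, 0.452 and 0.266 in controls. Control 3 was the nearest control but stayed above every knockout. Efnb2 over Ephb4, the arterial ligand over the venous receptor, was 0.246, 0.251 and 0.319 in knockouts and 0.446, 0.499 and 0.414 in controls.

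Tek over Ptprb was 0.250, 0.263 and 0.242 in knockouts and 0.321, 0.344 and 0.329 in controls. Dll4 over Notch4 was 0.225, 0.174 and 0.272 in knockouts and 0.487, 0.396 and 0.320 in controls. The lymphatic ligand Vegfc over its receptor Flt4 was 0.0612, 0.104 and 0.125 in knockouts and 0.210, 0.220 and 0.194 in controls. All 5 ratios were lower in knockouts, with ratios of geometric means between 0.446 (Vegfc over Flt4) and 0.759 (Tek over Ptprb). Tek over Tie1, Apln over Aplnr, Pdgfb over Pdgfrb, Kcnj8 over Abcc9 and Myh11 over Acta2 overlapped.

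**Figure D5:**
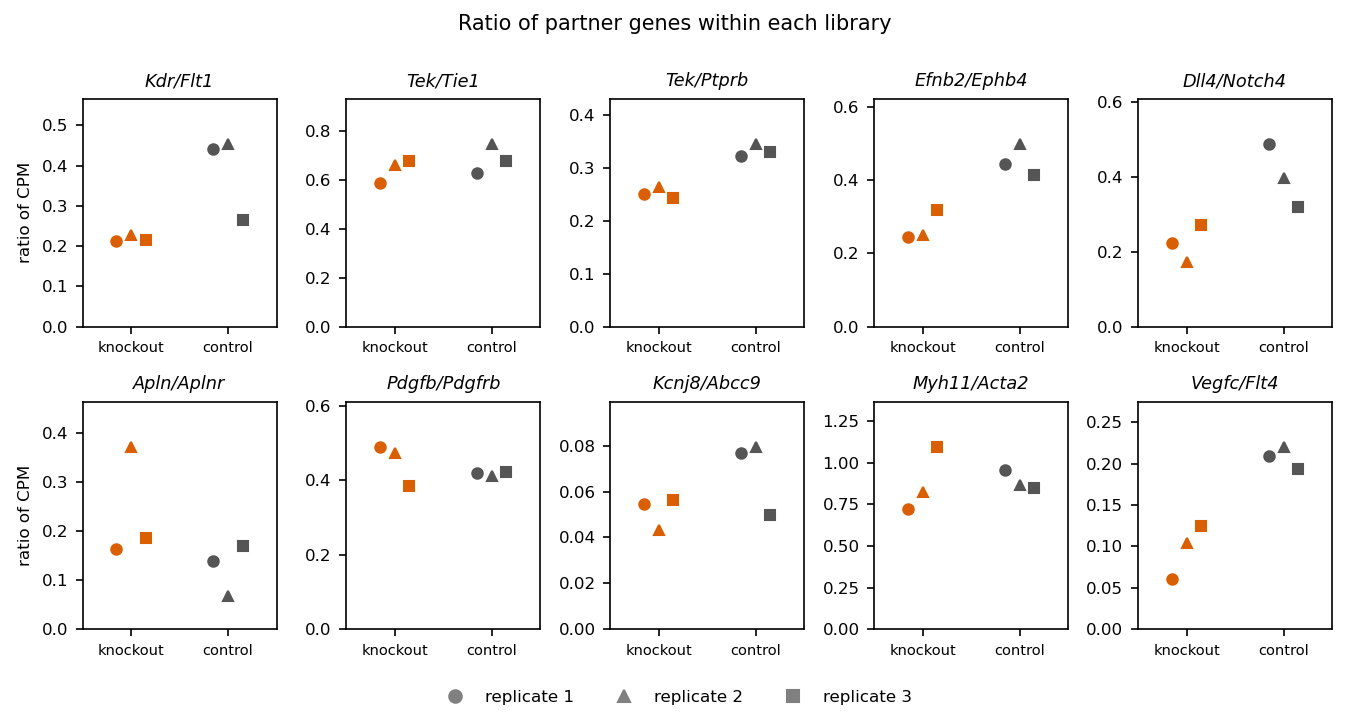
Ratio of TMM-scaled CPM of 2 partner genes in each library (y axis, from 0), knockout left and control right, with symbols for replicates. The groups separate for Kdr/Flt1, Tek/Ptprb, Efnb2/Ephb4, Dll4/Notch4 and Vegfc/Flt4 and overlap for the other 5 pairs.

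Further genes of the same pathways, none of them a member, were read from lists of ligands, Notch genes, endothelial genes and mural genes. Of 24 vascular ligands, co-receptors and factors, 15 were positive and 9 negative, with 0 called by edgeR, 3 at an unadjusted p under 0.05 and higher (6.56% of all genes), and 2 lower (5.07%). Vegfa, the main VEGF of muscle fibres, was at 340, 300 and 249 CPM in knockouts and at 296, 302 and 194 CPM in controls (0.17, SE 0.19, adjusted p = 0.774), and was named after its values were seen. S1pr1, a sphingosine phosphate receptor that stabilises endothelium, was at 82.8, 75.7 and 58.5 CPM in knockouts and 47.5, 55.4 and 54.4 CPM in controls (0.46, SE 0.14, adjusted p = 0.343). The endothelin receptor gene Ednrb was at 42.6, 29.5 and 14.6 CPM against 12.4, 17.0 and 10.7 CPM (1.11, SE 0.36, adjusted p = 0.363), with knockout 3 inside the control range. The other 3 with an unadjusted p under 0.05 were Edn1, which encodes endothelin (0.68, adjusted p = 0.367), Vegfc (-0.75, adjusted p = 0.383) and Pdgfa (-0.50, adjusted p = 0.363), and they too were named after their values were seen.

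Of 9 Notch ligands and targets, 4 were positive and 5 negative. Heyl, a Notch target of mural cells, was at 13.0, 10.3 and 13.4 CPM in knockouts and 18.7, 20.6 and 12.9 CPM in controls (-0.51, SE 0.19, adjusted p = 0.384). Controls 1 and 2 lay above the rest, as for Notch3. The same held for other members, among them Kdr, Kcnj8, Pdgfrb and Efnb2, so this pattern is not particular to Notch genes. Hey2, a target in arteries, stayed under 1 CPM in every library (0.76, SE 0.44, adjusted p = 0.554).

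Of 28 other endothelial genes, 17 were positive and 11 negative (median 0.11), with 0 called and 3 at an unadjusted p under 0.05, all higher (6.56% of all genes). Thbd, thrombomodulin, was at 54.8, 42.3 and 30.9 CPM in knockouts and 29.2, 28.3 and 22.8 CPM in controls (0.67, SE 0.20, adjusted p = 0.350). Ackr1, a chemokine receptor of venules, was at 7.93, 5.63 and 2.67 CPM against 2.31, 2.3 and 2.78 CPM (1.13, SE 0.36, adjusted p = 0.363), so it was high in knockouts 1 and 2 but not in knockout 3. Of 17 other mural genes, 9 were positive and 8 negative (median 0.062). Ppp1r14a, an inhibitor of myosin phosphatase, was at 1.26, 0.951 and 1.10 CPM in knockouts and 1.95, 1.74 and 1.95 CPM in controls, without overlap (-0.77, SE 0.22, adjusted p = 0.330). Vtn, vitronectin, which pericytes secrete, was at 18.4, 17.1 and 21.1 CPM against 24.4, 27.2 and 20.7 CPM (-0.35, SE 0.13, adjusted p = 0.380).

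By position the 46 members lie on 18 chromosomes. Lyve1 (Entrez 114332) spans chromosome 7, 110850607 to 110862953, Flt4 (14257) chromosome 11, 49609679 to 49652739, Notch4 (18132) chromosome 17, 34564286 to 34588543, Efnb2 (13642) chromosome 8, 8617235 to 8661242, and Kdr (16542) chromosome 5, 75932827 to 75979072, all in GRCm38.p6. Besides Kcnj8 and Abcc9, the pairs Icam2 and Pecam1, Notch1 and Egfl7, and Robo4 and Esam lie within 266073 bases of each other. Neither these neighbours nor the shared chromosome went with a shared sign in every pair: Notch1 was at 0.12 and Egfl7 at -0.49, Icam2 at -0.18 and Pecam1 at 0.095, and Robo4 at 0.015 and Esam at 0.18.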

How the data were processed

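Libraries were made from total RNA of each gastrocnemius with a stranded mRNA kit, per the labels' protocols. The deposited table of the authors gives, per gene, read counts, FPKM and TPM for 6 libraries. Counts carry no normalization in the deposited columns, FPKM values are scaled by length and library size, and the deposited TPM values were not used here. The submitters' processing notes name the mm10 genome, the aligner Bowtie2 2.3.4.1, the assembler StringTie 1.3.4d and, for read handling, bcl2fastq 2.20.0 beside FastQC 0.11.7. Which tool counted the reads, and with what strand setting, is not given in the sources used here.

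From the counts, genes were kept by edgeR's filterByExpr (minimum count 10), scaled by TMM and tested, 3 knockouts against 3 controls with no covariate, by edgeR's quasi-likelihood test (edgeR 4.0.16, R 4.3.3) with Benjamini-Hochberg adjustment over all 14109 genes, at a threshold of 0.05. The filter left 10423 genes untested. The printed CPM are scaled by TMM. The SE was derived as the absolute fitted log2 fold change divided by the square root of the test's F statistic. The 95% intervals use this SE and a t quantile, so they are approximate. Alternatives used DESeq2 1.42.0 (which gave no adjusted p to 280 genes), limma 3.58.1 on voom weights or on log2(FPKM + 1) and log2(FPKM + 0.1), other scalings and filters, and each library left out. A count of 0 allows at most 3 counts, and such limits cover counting error only. The common biological coefficient of variation was 19.2%. The edgeR script was tested on simulated counts with known changes.

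Genes described singly followed a rule: members past the threshold, the smallest p and the highest FPKM of each role, the 5 smallest p in each direction, and the 2 smallest p of each further list. All other members are described as members. Of genes outside the rule, Usp21 and Acta1 are given as context, and Reln and Ccl21a complete their list of 4. Single genes of the adipocyte and satellite cell lists are named beside their sums, after their values were seen. Further genes with values are said to be named after their values were seen. The members, the further lists and the tests were chosen with earlier results of these data known. RefSeq tables for GRCm38.p6 gave positions and promoter windows.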

Additional observations from a re-analysis of the deposited data

How the results depend on the processing

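No member was called in any fit that left out a library, and 4 of 46 changed sign in at least 1 of them (Robo4, Vwf, Eng and Rgs5). Beyond TMM and edgeR's test, counts over all genes (5 higher, 3 lower) moved to 210 higher and 80 lower with DESeq2, which also called 1 member, Lyve1 (log2 fold change 0.90, adjusted p = 0.00662), to 4 higher and 1 lower with limma-voom, and to 1 higher and 0 lower with limma on log2(FPKM + 1) and on log2(FPKM + 0.1). Members without overlap numbered 2 higher and 0 lower on both FPKM scales, 3 lower with upper-quartile scaling (9.72% of all genes) and 0 lower with a filter of 1 CPM (9.34%). The median of the lymphatic members was 0.20 on log2(FPKM + 1), that of the endothelial members 0.029, and that of the mural members 0.0053 on log2(FPKM + 1) and 0.0054 on log2(FPKM + 0.1). Over all genes tested it was -0.047 on log2(FPKM + 1) and -0.0696 on log2(FPKM + 0.1). By edgeR on the counts, the mural median was 0.25 for smooth muscle genes alone and -0.22 for pericyte genes alone. Rgs5 turned to -0.0086 with upper-quartile scaling, -0.058 on log2(FPKM + 1) and -0.059 on log2(FPKM + 0.1). With upper-quartile scaling the median over all genes tested was -0.018. Leaving out each library in turn gave 1 to 120 genes higher and 0 to 21 lower over all genes, most without knockout 3, 8 to 14 members without overlap and higher (10.8% to 18.1% of all genes in those fits), 1 to 13 lower (11.7% to 18.1%), most without control 3 (15.7%), and Rgs5 between -0.12 and 0.095. The medians then ran from 0.040 to 0.11 (endothelial), 0.32 to 0.71 (lymphatic) and 0.031 to 0.090 (mural). Same-numbered samples did not deviate together (correlations -0.0082, -0.19 and -0.098). With 3 samples per group, these correlations cannot decide whether the numbers pair mice. With the replicate block 0 genes were higher and 0 lower. The cause of these shifts was not tested. Over all values and settings, 436 kept their direction and side of the threshold or stayed near the value reported, 55 moved beyond that, 6 reversed and 1 passed the threshold. Prox1, Apln and Cnn1 had as few as 41, 40 and 39 counts in a library, which limits their precision.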
